A study of Homo sapiens with 36 samples.

Results

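The response of resting control THP-1 cells to buffered hypercapnia was described from 6 of the 36 libraries of the series. THP-1 cells are monocyte-like cells derived from a human leukaemia, and the control line (shNT) stably carried a non-target short hairpin RNA delivered by a lentivirus. Whether that line was a pool or a single clone is not given in the sources used here. All 6 libraries came from shNT cells without LPS, 3 exposed to 5% CO2 and 3 exposed to 10% CO2 for 4 h in medium that had been equilibrated with the gas and buffered for pH. The members were chosen by their sample records alone, and every expressed gene was described. A further 12 resting libraries came from lines carrying a short hairpin RNA against NR4A2 (shNR4A2) or NR4A3 (shNR4A3), 3 at 5% and 3 at 10% CO2 for each line. Another 6 came from shNT cells at the same CO2 levels that also received LPS at 2.5 µg/mL for 2 h. These 18 libraries were used only for comparison.

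Carbon dioxide crosses cell membranes freely and is hydrated by carbonic anhydrases to bicarbonate and protons, which transporters in the plasma membrane then exchange. In hypercapnia CO2 is raised, and when the medium is buffered the change in CO2 is separated from most of the change in pH. Raised CO2 is known to dampen innate immune signalling in monocytes and macrophages.

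Libraries of the 6 resting shNT samples held 17132910 to 21068626 counts, with 23893 to 26843 genes detected. Replicates differed by more than counting noise, with a chi-square per degree of freedom of 8.54 to 11.4 for 5 pairs of libraries and of 25.9 for 10% CO2 replicates 1 and 3. In the 500 most variable genes, the first principal component (26.3% of the variance) followed the replicate number and not CO2. All 11 monocyte markers were counted in every library and none passed the test, with a summed level of 956 to 1149 CPM (counts scaled to the same library total) at 5% and 950 to 1010.0 CPM at 10% CO2. CD14 and CD68 were low members of that list, at 5.91 to 16.6 and 1.47 to 1.95 CPM. T cell, NK cell, erythroid, epithelial and fibroblast marker lists summed to under 7 CPM in each library, and B cell markers to 16.9 to 24.7 CPM. Over both CO2 levels, NR4A2 ranged from 1.73 to 4.46 CPM in resting shNT libraries against 1.21 to 2.63 in resting shNR4A2 libraries. NR4A3 ranged from 0.325 to 1.23 CPM against 0.0554 to 0.397 in shNR4A3 libraries, so both pooled ranges overlapped at rest. At matched CO2 those of NR4A2 did not overlap (3.152 to 4.462 against 1.789 to 2.631 at 5%, 1.732 to 3.575 against 1.207 to 1.595 at 10%). Those of NR4A3 were apart at 5% (0.865 to 1.226 against 0.0554 to 0.283) and overlapped at 10% CO2 (0.325 to 0.675 against 0.336 to 0.397). With LPS the pooled ranges did not overlap, at 51.5 to 81.5 against 15.7 to 30.9 CPM for NR4A2 and 54.9 to 70.4 against 22.9 to 35.7 CPM for NR4A3.

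At 10% CO2, 58 genes were higher and 51 were lower than at 5% CO2. These 109 genes, called at an adjusted p under 0.05 by edgeR's quasi-likelihood test, were 0.615% of the 17720 genes tested (0.327% higher and 0.288% lower). Changes were moderate. The called higher genes had a median log2 fold change of 0.66 (0.45 to 1.40) and the called lower genes one of -0.64 (-1.45 to -0.48). A change of over 1.5-fold was seen for 41 higher and 36 lower genes, and one of over 2-fold for 4 and 6. In all 109 genes the 3 libraries at 10% CO2 lay on one side of the 3 at 5%, which was so for 19.9% of all genes tested. Adjusted p-values of the called genes lay between 0.0325 and 0.0483. Leaving out 5% CO2 replicate 1 or 10% CO2 replicate 2 left no call by edgeR (1723 and 1457 genes had an unadjusted p below 0.05, against 2646 with all libraries). All 109 kept their direction in each case, but genes whose libraries do not overlap could hardly do otherwise. Leaving out 5% CO2 replicate 3 gave 37 calls, 10% CO2 replicate 1 gave 559 and 10% CO2 replicate 3 gave 202, and DESeq2 called 358. A filter set within the 6 libraries gave 71 calls, of which 45 were higher and 26 lower. The study describes its data as coming from individual experiments, but no label ties a library to a culture or a day, so the p-values measure the spread between these samples, which may be technical in part. In bulk RNA a change in the share of cells expressing a gene cannot be told apart from a change per cell.

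**Figure D1:**
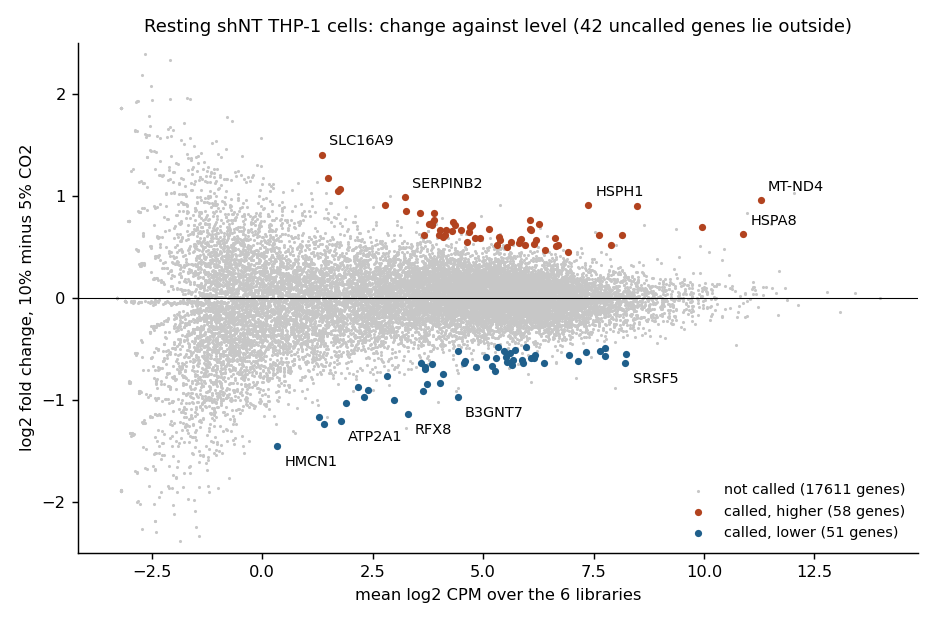
Log2 fold change at 10% against 5% CO2 (vertical axis) by mean log2 CPM over the 6 libraries (horizontal axis) for the genes tested in resting shNT cells. The 58 called higher genes and 51 called lower genes span low to high expression, and 42 uncalled genes lie beyond the axis range of 2.5.

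Sequences before the transcription start are shown first for the called genes whose promoters held an element known for one of the groups described here. Heat shock factors bind the heat shock element, searched as 3 units, GAA and TTC in alternation with NN between neighbours, in the 250 bases before the RefSeq start on both strands. It was present in 0.439% of all 27305 promoters searched (GRCh38.p14), in 0.281% of those of the genes tested, in 2 of the 46 called higher genes with a promoter (HSPA8 and SERPINH1) and in 0 of the 38 called lower genes. HSPA8 held 2 matches and SERPINH1 held 1, shown here in capitals within 30 bases.
HSPA8, chr11:123062345-123062374, minus strand: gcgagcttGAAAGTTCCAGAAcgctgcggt
HSPA8, chr11:123062171-123062200, minus strand: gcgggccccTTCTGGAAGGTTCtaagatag
SERPINH1, chr11:75562168-75562197, plus strand: tttccaactTTCCAGAAGTTTCtcgggacg
HSPH1 held no match in its window.

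The metal-responsive factor MTF1 binds a core searched as TGCNCNC, which was common, at 48.4% of all promoters, 56.3% of those of genes tested, 54.3% of those of called higher genes and 68.4% of those of called lower genes. MT1X, a metallothionein that binds zinc and was called higher, held 4 matches, in capitals in the bases from 250 to 47 before its start.
MT1X, chr16:56682220-56682423, plus strand: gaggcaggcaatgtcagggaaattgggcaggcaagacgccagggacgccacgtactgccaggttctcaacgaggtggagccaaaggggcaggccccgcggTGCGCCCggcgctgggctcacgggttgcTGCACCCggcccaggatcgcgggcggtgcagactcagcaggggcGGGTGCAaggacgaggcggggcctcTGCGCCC
A sterol regulatory element (TCACNCCAC, 0.875% of all promoters and 0.844% of those of genes tested) was in 0 of the called genes' promoters, INSIG1 included. The ATF4-type element TGATGNAA (3.19% of all promoters and 1.51% of those of genes tested) was in 2.17% of those of called higher genes, and in 6 of 33 from the list of ATF4 targets and amino acid enzymes. PSAT1 and STC2, called members of that list, held no match. Among the called transcripts were the host genes of a pair of microRNAs, one in each direction. Their RefSeq mature forms are printed with the seed, bases 2 to 8, in capitals. The mature forms themselves were not measured.
hsa-miR-155-5p (in MIR155HG), chr21:25573983-25574006, plus strand: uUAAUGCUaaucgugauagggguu
hsa-let-7i-5p (in MIRLET7IHG), chr12:62603691-62603712, plus strand: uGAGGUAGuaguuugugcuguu

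Several chaperones of the cytosol and their partners were higher. Of 26 genes of the HSP70, HSP90, HSP110 and small heat shock protein list, 4 were higher and none lower, beside 0.327% called higher over all genes. The list median log2 fold change was 0.12 beside -0.0074 over all genes. HSPH1 (ENSG00000120694, chr13:31134974-31162388, minus strand), the HSP110 nucleotide exchange factor, was at 126, 105 and 138 CPM in the 3 libraries at 5% CO2 and at 246, 276 and 174 CPM in those at 10%. All 3 libraries at 10% lay above those at 5%, replicate 3 being the nearest (log2 fold change 0.91, standard error 0.15, adjusted p = 0.0325). HSPA8, the constitutive HSC70 chaperone whose promoter is printed with its heat shock elements, was at 1712, 1345 and 1532 CPM and rose to 2509, 2658 and 1920.4 CPM (log2 fold change 0.63, standard error 0.12, adjusted p = 0.0325). AHSA1, which stimulates the ATPase of HSP90, rose from 80.1 ± 1.2 to 120.4 ± 14.7 CPM (SD, n = 3; log2 fold change 0.59, standard error 0.10, adjusted p = 0.0325). FKBP4, an HSP90-bound immunophilin, rose from 27.7 ± 3.38 to 44.3 ± 6.2 CPM (log2 fold change 0.68, standard error 0.13, adjusted p = 0.0325). Among the 24 J-domain co-chaperones, which bring clients to HSP70, DNAJA1 rose and none was called lower (15 of 24 log2 fold changes were positive, median 0.05). It was at 237, 210.4 and 243 CPM at 5% and at 372, 402 and 283 CPM at 10% CO2 (log2 fold change 0.61, standard error 0.12, adjusted p = 0.0366). HSP90AA1 (log2 fold change 0.37, adjusted p = 0.139) did not pass, nor did the inducible HSPA1A (0.30, adjusted p = 0.439) or HSF1, the main heat shock factor (-0.07, adjusted p = 0.782). HSPA1A and HSPA1B are near-identical copies, so their counts are uncertain.

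The TRiC and mitochondrial chaperonins, ring complexes that fold proteins, had 10 members tested, none called. All 10 log2 fold changes were positive (median 0.25), and 8 of the 10 had all libraries at 10% CO2 above those at 5%, which was so for 10.6% of all genes. HSPD1, the mitochondrial HSP60, had the smallest p, at 578, 605 and 628 CPM and 822, 889.6 and 678 CPM (log2 fold change 0.40, adjusted p = 0.0877). Among 22 endoplasmic reticulum stress genes none was called (median -0.04), and 38 proteasome subunits (median 0.05) also had none. In a single fit to all 36 libraries, HSPH1, HSPA8 and DNAJA1 no longer passed the threshold (adjusted p = 0.155, 0.185 and 0.149), at log2 fold changes of 0.91, 0.62 and 0.61.

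**Figure D2:**
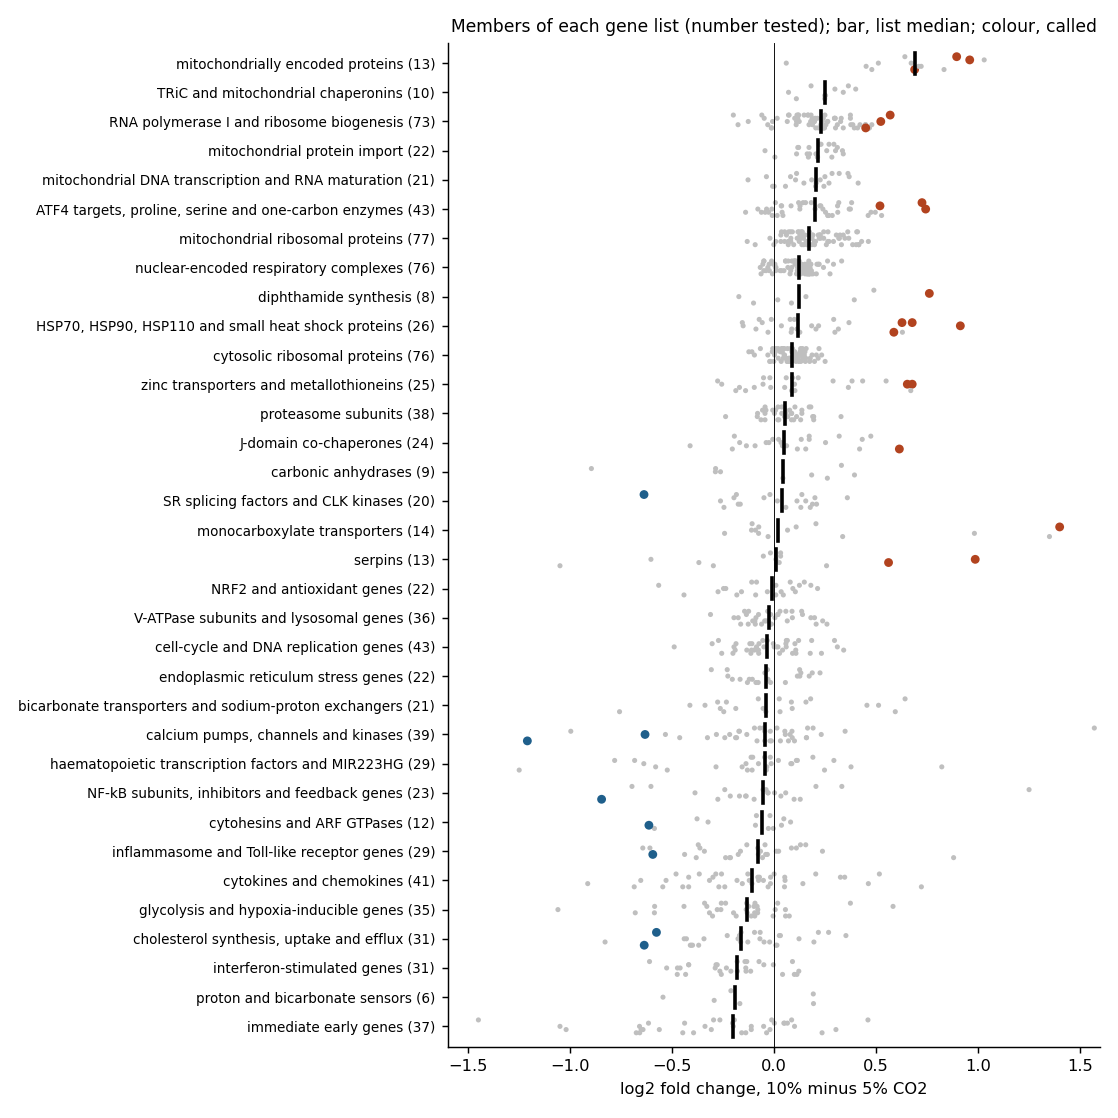
Log2 fold change at 10% against 5% CO2 in resting shNT cells (horizontal axis) for the tested members of each gene list, ordered by the list median (black bar). Coloured points are called genes, higher to the right and lower to the left, and 3 entries lie beyond the axis range of 1.6. The mitochondrially encoded list has the highest median, 0.69, and the immediate early list the lowest, -0.20.

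Transcripts of the mitochondrial genome made up a larger share of the libraries at 10% CO2. The 13 protein-coding genes, subunits of the respiratory chain and ATP synthase, took 1.43%, 1.93% and 1.29% of all counts at 5% CO2 and 3.01%, 2.88% and 1.99% at 10% CO2. The groups did not overlap, but 10% CO2 replicate 3 was only just above 5% CO2 replicate 2. The means were 1.55% ± 0.339 and 2.63% ± 0.559 (SD, n = 3), a ratio of 1.69, with an exact two-sided permutation p of 0.1, the smallest that 3 against 3 libraries can give. All 13 genes had a positive log2 fold change, with a median of 0.69, 7 of them without overlap, and 3 were called higher. Over all genes 48.7% were positive, 10.6% had no overlap upward and 0.327% were called higher. MT-ND4, a complex I subunit, was at 1577, 2261 and 1596 CPM at 5% CO2 and at 3831, 4025 and 2707 CPM at 10% (log2 fold change 0.96, standard error 0.17, adjusted p = 0.0416). MT-ND4L, whose reading frame overlaps MT-ND4 so that their counts may be split, was at 249, 307 and 242 and 570.5, 552 and 359.8 CPM (log2 fold change 0.89, standard error 0.16, adjusted p = 0.0325). MT-ND5 was at 768, 927 and 674 and 1493, 1318 and 1008 CPM (log2 fold change 0.69, standard error 0.14, adjusted p = 0.0446). MT-CO1, the catalytic subunit of complex IV, had the largest estimate (1.03, standard error 0.20) and did not pass (adjusted p = 0.08). MT-ND3, named after its values were seen, had the smallest, 0.06, with libraries that overlapped. No mitochondrial gene was called in a single fit to all 36 libraries (adjusted p = 0.12 for MT-ND4, 0.147 for MT-ND4L and 0.224 for MT-ND5), and none without 5% CO2 replicate 1, 5% CO2 replicate 3 or 10% CO2 replicate 2. Leaving out 10% CO2 replicate 1 gave 2 calls among the 13, 10% CO2 replicate 3 gave 7 and 5% CO2 replicate 2 gave 8. DESeq2 called 6 of them, and edgeR with no filter 8. In resting shNR4A2 cells the share was 1.73%, 1.46% and 1.89% at 5% and 2.78%, 2.06% and 2.96% at 10% CO2, without overlap. In resting shNR4A3 cells it was 2.09%, 1.03% and 2.01% and then 3.14%, 2.87% and 1.53%, where the groups overlapped. Mitochondrial sequences have copies in the nuclear genome, so counts from uniquely placed reads may miss part of these transcripts.

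**Figure D3:**
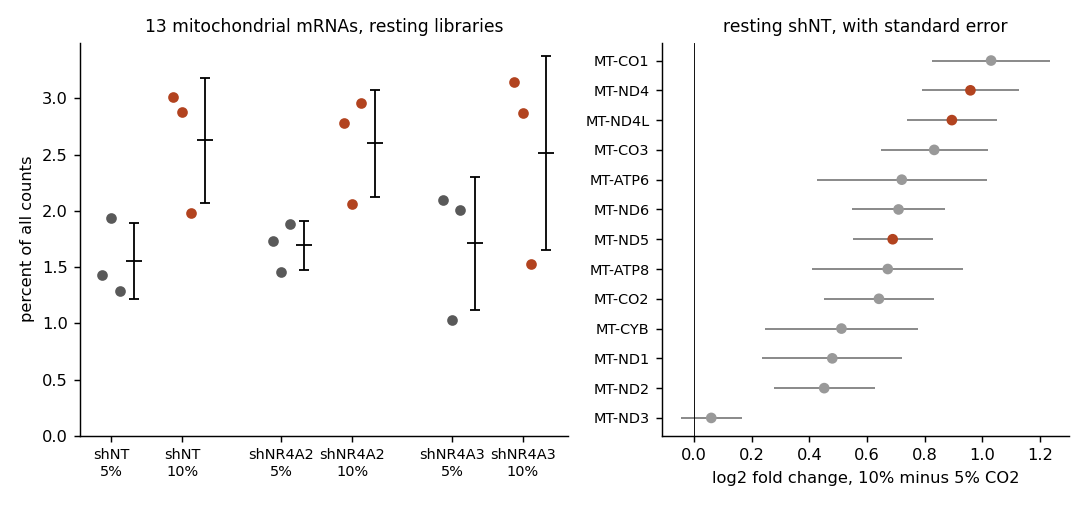
Left, percent of all counts from the 13 mitochondrial mRNAs in each resting library of shNT, shNR4A2 and shNR4A3 cells at 5% and 10% CO2 (points; bars, mean and SD, n = 3); the 3 shNT libraries at 10% lie above those at 5%. Right, log2 fold change of each gene in resting shNT cells with its standard error, the 3 called genes in colour; MT-CO1 has the largest estimate and MT-ND3 the smallest.

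In 4 lists of nuclear genes for mitochondrial functions no member was called, and most log2 fold changes were positive. Of 77 mitochondrial ribosomal proteins, which translate those 13 mRNAs, 73 had a positive log2 fold change and 36 had no overlap upward (median 0.17), as 10.6% of all genes had. MRPL15 had the smallest p, at 53.4, 56.6 and 57.5 CPM and 71.4, 72.8 and 79 CPM (log2 fold change 0.41, adjusted p = 0.0776). Of 76 nuclear-encoded respiratory subunits 63 were positive (median 0.12), of 22 import genes 21 (median 0.21), and of 21 genes for mitochondrial DNA transcription and RNA maturation 18 (median 0.20), beside 48.7% positive over all genes tested. POLRMT, the mitochondrial RNA polymerase, was at 80.9, 84.8 and 72.3 and 93.2, 107 and 107 CPM (log2 fold change 0.37, adjusted p = 0.123). TFAM, which packages mitochondrial DNA, had overlapping libraries (0.24, adjusted p = 0.322). The members of these lists were not called one by one, so the counts describe direction only.

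Some genes for making ribosomes and proteins were also higher. In the list of RNA polymerase I and ribosome biogenesis, 3 of 73 were called higher and none lower, with a median of 0.23 and 41 members without overlap upward, beside 0.327% called higher and 10.6% without overlap upward over all genes. RRP9, a U3 small nucleolar RNA-binding protein that takes part in the processing of ribosomal RNA, was at 47.2, 49.1 and 43.8 and 63.3, 71.7 and 72.8 CPM (log2 fold change 0.57, standard error 0.11, adjusted p = 0.0325). NAT10, an RNA acetyltransferase, was at 104, 107 and 99.1 and 144, 145 and 134 CPM, a small change with tight replicates (log2 fold change 0.45, standard error 0.09, adjusted p = 0.0446). WDR12, of the complex that matures the large ribosomal subunit, was at 59.1, 55.5 and 62.1 and 86.4, 92.2 and 75.6 CPM (log2 fold change 0.52, standard error 0.11, adjusted p = 0.0416). POLR1A, the largest RNA polymerase I subunit, did not pass (log2 fold change 0.47, adjusted p = 0.0967). Of the 76 cytosolic ribosomal proteins none was called (median 0.09). POLR3G, a subunit of RNA polymerase III, was outside the lists and rose from 4.96 ± 0.484 to 9.28 ± 1.32 CPM (log2 fold change 0.91, standard error 0.17, adjusted p = 0.0325). Diphthamide is a modified histidine of elongation factor 2, and of 8 genes for its synthesis DPH5 rose, from 10.3, 11.1 and 12.6 CPM to 19.6, 21.1 and 16.9 CPM (log2 fold change 0.76, standard error 0.14, adjusted p = 0.0325). Its divergent transcript DPH5-DT rose too (log2 fold change 1.05, adjusted p = 0.0416), and since their ends overlap on opposite strands and the strand setting of the counts is not given in the sources used here, reads from the overlap cannot be told apart. NARS2, the mitochondrial asparaginyl-tRNA synthetase, was at 9.06, 8.78 and 8.66 and 14.8, 17.2 and 15.2 CPM, with no overlap (log2 fold change 0.83, standard error 0.13, adjusted p = 0.0325).

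The list of ATF4 targets and of proline, serine and one-carbon enzymes had 3 of 43 members called higher and none lower (median 0.20, 24 without overlap upward). Over all genes 0.327% were called higher and 10.6% had no overlap upward. ATF4 is a transcription factor of the amino acid stress response. PYCR1, which makes proline in mitochondria, was at 54.8, 66.1 and 58.9 CPM at 5% CO2 and at 86.8, 98.9 and 111 CPM at 10% (log2 fold change 0.73, standard error 0.12, adjusted p = 0.0325). PSAT1, the transaminase of serine synthesis, was at 192, 191 and 218 and 288, 289 and 285 CPM, the replicates at 10% CO2 being nearly equal (log2 fold change 0.52, standard error 0.09, adjusted p = 0.0325). STC2, a secreted glycoprotein and ATF4 target, was at 15.4, 14.7 and 15.9 and 23.9, 21.8 and 31.3 CPM (log2 fold change 0.74, standard error 0.14, adjusted p = 0.0325). Other enzymes of serine synthesis, named after their values were seen, gave 0.46 for PSPH (adjusted p = 0.0714) and 0.38 for PHGDH (adjusted p = 0.109) and did not pass.

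Transporters and metal-handling genes held some of the larger changes. SLC16A9 (ENSG00000165449, chr10:59650761-59736002, minus strand), a member of the monocarboxylate transporter family, was at 1.01, 1.65 and 1.98 CPM at 5% CO2 and at 4.05, 5.2 and 3.04 CPM at 10%. It had the largest log2 fold change of the called higher genes, at a low level (log2 fold change 1.40, standard error 0.28, adjusted p = 0.0385). The other 13 monocarboxylate transporters were not called (list median 0.02). SLC39A14, a zinc and manganese importer, was at 55.6, 51.2 and 52 and 91.8, 88.2 and 74 CPM (log2 fold change 0.68, standard error 0.11, adjusted p = 0.0325), and MT1X was at 16, 14.6 and 16.1 and 22.1, 26.9 and 24.5 CPM (log2 fold change 0.65, standard error 0.12, adjusted p = 0.0325). These were the called members, both higher, of 25 zinc transporters and metallothioneins, with a list median of 0.09. Over all genes 0.327% were called higher. SLC39A8, the closest relative of SLC39A14, showed -0.05 (adjusted p = 0.858). Metallothioneins are a family of similar genes, so the split of reads among them is uncertain.

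The called calcium-handling genes were lower. Of 39 calcium pumps, channels and kinases, 2 were lower and none higher (median -0.05), beside 0.288% called lower over all genes. ATP2A1, the SERCA1 pump that fills the endoplasmic reticulum with calcium, was at 5.9, 4.42 and 5.14 CPM at 5% CO2 and at 2.78, 1.57 and 2.33 CPM at 10% (log2 fold change -1.21, standard error 0.23, adjusted p = 0.0325). CD38, an enzyme that makes cyclic ADP-ribose, was at 68.1, 55 and 52.6 and 43.6, 35.5 and 34.1 CPM (log2 fold change -0.63, standard error 0.13, adjusted p = 0.0416). Both had libraries at 10% CO2 wholly below those at 5%.

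In resting shNT cells, genes that handle CO2, bicarbonate and protons directly were not called. Of 9 carbonic anhydrases, 21 bicarbonate transporters and sodium-proton exchangers and 6 proton or bicarbonate sensors, none passed, beside 0.615% of all genes tested. The list medians were 0.04, -0.04 and -0.19. CA2, the fast cytosolic carbonic anhydrase, was at 3232, 3036 and 2797 CPM and 3673, 3756 and 3433 CPM (log2 fold change 0.26, adjusted p = 0.175). SLC4A7, a sodium-bicarbonate cotransporter, was at 10.8, 8.07 and 13.4 and 18.6, 16.9 and 13.4 CPM (log2 fold change 0.59, adjusted p = 0.139), and the proton-sensing receptor GPR132 at 68, 52.6 and 46.4 and 45.1, 30.9 and 38.4 CPM (-0.55, adjusted p = 0.117). The 36 V-ATPase and lysosomal genes (median -0.02) had none called. A missed threshold leaves a smaller change possible, and the standard errors of CA2, SLC4A7 and GPR132 were 0.09, 0.18 and 0.15. In the 12 resting knockdown libraries edgeR called SLC4A7 higher (log2 fold change 0.76, adjusted p = 0.00529) and GPR132 lower (-0.45, adjusted p = 0.0075). No other carbonic anhydrase, bicarbonate transporter, exchanger or sensor listed was called there, beside 3.32% called higher and 3.37% lower over all genes.

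Of 31 cholesterol synthesis, uptake and efflux genes, 2 were lower and none higher (0.288% of all genes were called lower). The list median was -0.16, and 8 had libraries wholly below (9.29% of all genes did). INSIG1, which retains the sterol sensor SCAP in the endoplasmic reticulum, was at 70.2, 81.9 and 70.6 CPM at 5% CO2 and at 49.8, 42.7 and 50.6 CPM at 10% (log2 fold change -0.64, standard error 0.11, adjusted p = 0.0325).

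In some lists of inflammatory and signalling genes a single member was called, and in others none. Over all genes tested 0.615% were called, 0.288% of them lower and 0.327% higher. BCL3, a nuclear IκB protein, was the called one of 23 NF-kB genes, at 18.9, 19.5 and 14.6 CPM and 10.9, 8.13 and 10.3 CPM (log2 fold change -0.85, standard error 0.16, adjusted p = 0.0325). DPP8, a dipeptidyl peptidase that restrains an inflammasome sensor, was the called one of 29 inflammasome and Toll-like receptor genes, at 96.2, 81.6 and 85.4 and 69.9, 50.9 and 53.4 CPM (log2 fold change -0.59, standard error 0.12, adjusted p = 0.0448). CYTH2, a guanine nucleotide exchange factor for ARF GTPases, was the called one of 12 cytohesins and ARF GTPases, at 79.8, 77.7 and 62.1 and 44.4, 45 and 54 CPM (log2 fold change -0.61, standard error 0.12, adjusted p = 0.0389). All 3 genes were lower. The 41 cytokines and chemokines (median -0.11), 31 interferon-stimulated genes (-0.18) and 37 immediate early genes (-0.20) had none called. TNF was at 33.1, 34.1 and 22.5 CPM at 5% and at 16, 9.1 and 22.3 CPM at 10% CO2, the highest library at 10% lying just under the lowest at 5% (log2 fold change -0.91, adjusted p = 0.208). MX1 (log2 fold change -0.53, adjusted p = 0.0643) and BTG2 (-0.66, adjusted p = 0.0674) were just outside the threshold and had libraries at 10% CO2 wholly below. The orphan receptors NR4A1, NR4A2 and NR4A3 did not pass (adjusted p = 0.272, 0.306 and 0.226), with log2 fold changes of -0.39, -0.56 and -1.05.

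Among other lists, 35 glycolysis and hypoxia-inducible genes had none called (median -0.13), led by NDRG1 (log2 fold change -0.59, adjusted p = 0.0585), while hexokinase HK2 lay on the other side (0.58, adjusted p = 0.082). None was called of 29 haematopoietic transcription factors with MIR223HG (median -0.05), of 43 cell-cycle genes (-0.03) or of 22 NRF2 and antioxidant genes (-0.01). For these and the lists that follow, the share over all genes was 0.327% called higher and 0.288% lower. RUNX3 gave -0.78 (adjusted p = 0.082) and MYB 0.38 (adjusted p = 0.082). Of 20 SR splicing factors and CLK kinases, SRSF5 was lower. This RNA-binding splicing regulator was at 409.9, 398 and 313 CPM at 5% CO2 and at 247, 218 and 256 CPM at 10% (log2 fold change -0.64, standard error 0.11, adjusted p = 0.0325). Of 13 serpins, SERPINB2, an inhibitor of plasminogen activators, rose from 6.69 ± 1.53 to 13.3 ± 2.76 CPM (log2 fold change 0.99, standard error 0.19, adjusted p = 0.0325). SERPINH1, the collagen chaperone HSP47 whose heat shock element is printed, was at 56.5, 59.6 and 64.5 and 79.2, 89.9 and 97.5 CPM (log2 fold change 0.56, standard error 0.11, adjusted p = 0.0363). Of the 44 tested genes that the study names, 12 were higher and 6 lower, but that list was drawn in part from these samples and is not independent evidence of direction.

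**Figure D4:**
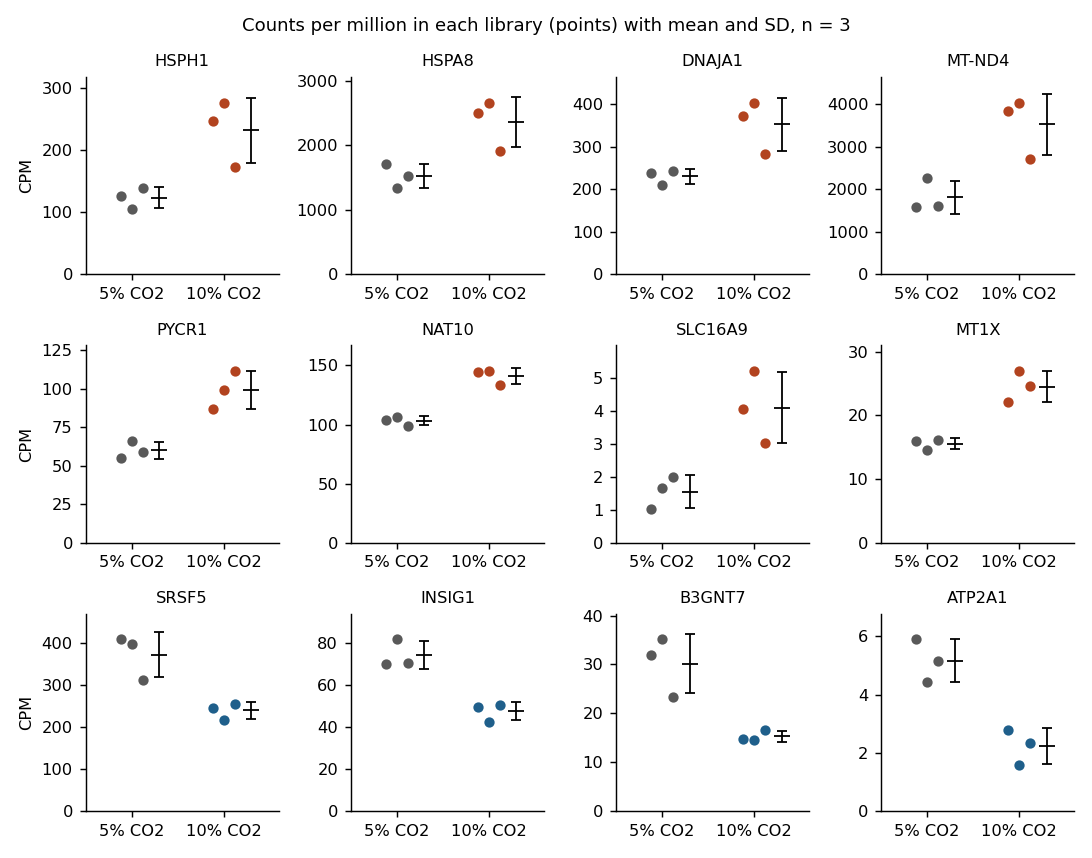
CPM in each of the 6 resting shNT libraries (points) with the mean and SD (n = 3) for 12 called genes, on axes that start at 0. HSPH1 to MT1X are higher and SRSF5 to ATP2A1 lower at 10% CO2, without overlap between the groups.

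Of the 109 called genes 28 were in at least 1 functional list and 81 in none. Among the latter, the lower genes with the largest changes included HMCN1, an extracellular matrix protein expressed at a low level, at 2.35, 2.00 and 1.43 CPM and 0.683, 0.813 and 0.617 CPM (log2 fold change -1.45, standard error 0.31, adjusted p = 0.0465). MIRLET7IHG, which hosts let-7i, was at 3.5, 3.36 and 4.95 and 1.85, 1.52 and 1.61 CPM (log2 fold change -1.24, standard error 0.23, adjusted p = 0.0325). RFX8, of the RFX transcription factor family, had one of the smallest p-values, at 13.9, 15.8 and 13.8 CPM at 5% CO2 and 5.03, 6.45 and 8.21 CPM at 10% (log2 fold change -1.14, standard error 0.17, adjusted p = 0.0325). B3GNT7, a glycosyltransferase that acts on keratan sulfate, was at 32, 35.1 and 23.4 and 14.8, 14.6 and 16.6 CPM (log2 fold change -0.97, standard error 0.15, adjusted p = 0.0325). A4GALT, the Gb3 synthase, fell as well, with a log2 fold change of -0.84 (adjusted p = 0.0446). S1PR2, a sphingosine-1-phosphate receptor, was at 7.29, 6.19 and 6.88 and 2.98, 3.52 and 3.89 CPM (log2 fold change -0.97, standard error 0.18, adjusted p = 0.0325). LY6G5B (-1.0, adjusted p = 0.0325), the adaptor BCAR3 (-0.91, adjusted p = 0.0421), the ubiquitin ligase subunit FBXO32 (-0.91, adjusted p = 0.0384) and the lncRNA PDXDC2P-NPIPB14P (-0.88, adjusted p = 0.0448) also fell. TTLL3, a tubulin glycylase, had tight replicates at 36.5, 36.4 and 35.5 CPM and 23.3, 22.8 and 21.5 CPM (log2 fold change -0.68, standard error 0.11, adjusted p = 0.0325).

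The higher genes outside the lists included MIR155HG, the host of miR-155, at 6.61, 7.66 and 6.97 CPM at 5% CO2 and 15.9, 12.8 and 9.63 CPM at 10% (log2 fold change 0.85, standard error 0.18, adjusted p = 0.0446). DYNLL1, a dynein light chain, had the smallest p of all genes, at 159.6, 153 and 162 CPM and 232, 259.6 and 235 CPM (log2 fold change 0.61, standard error 0.09, adjusted p = 0.0325). Its 3 libraries at 10% CO2 stood well apart from the 3 at 5%. ANKLE1, a nuclease with an ankyrin repeat and LEM domain, rose by 0.83 (adjusted p = 0.0448) on the log2 scale, and the lncRNAs RAB4A-AS1 and LINC00638 by 1.18 (adjusted p = 0.0325) and 1.06 (adjusted p = 0.0385). RAB4A, the neighbour of RAB4A-AS1 and also named after its values were seen, had overlapping libraries (log2 fold change 0.03, adjusted p = 0.926).

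Several called genes outside the lists were named after their values were seen. CAD, which begins pyrimidine synthesis, rose by 0.51 on the log2 scale (adjusted p = 0.0465), and GART of the purine pathway rose by 0.51 (adjusted p = 0.0403). EARS2, the mitochondrial glutamyl-tRNA synthetase, rose by 0.52 (adjusted p = 0.0388) and MTERF3, a factor acting on mitochondrial DNA, by 0.54 (adjusted p = 0.0419). TREM2, a lipid receptor of myeloid cells, was at 35.4, 33.3 and 33.4 and 44.8, 48.2 and 58.1 CPM (log2 fold change 0.57, standard error 0.12, adjusted p = 0.0419). The lncRNA NEAT1, which builds paraspeckles, was lower at 63.1, 66.9 and 70.2 against 117, 92.8 and 101 CPM (log2 fold change -0.64, standard error 0.11, adjusted p = 0.0325). Lower protein-coding genes included the receptor NOTCH1 (-0.57, adjusted p = 0.0448), the retinoic acid receptor RARA (-0.54, adjusted p = 0.0448), the death-signalling kinase RIPK1 (-0.64, adjusted p = 0.0483) and the intermediate filament VIM (-0.56, adjusted p = 0.0325). The called lower genes were longer (median exon length 5235 bases against 3425.5 for the called higher genes and 4197 over all genes tested) and richer in GC (53.7% against 48.6% and 48.6%). Over all genes the median log2 fold change was 0 in the shortest of 5 bins by exon length, 0.03 in the second and -0.05 in the longest. In the resting knockdown libraries the longest bin had a median of 0.0127. The part of length or GC in the calls was not tested.

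The same genes were read in the 12 resting libraries of the knockdown lines, which share no sample with the shNT libraries. There edgeR, in a fit with a term for the line and none for the replicate number, called 1185 genes (6.69% of those tested), 588 of them higher (3.32%) and 597 lower (3.37%). All 58 higher and all 51 lower genes of shNT cells had the same sign in the knockdown libraries, as 73% of all genes did, and 50 (86.2%) and 44 (86.3%) were called in the same direction. Their medians were 0.51 and -0.51 there. SLC16A9 ranged from 0.794 to 1.64 CPM over the 6 knockdown libraries at 5% CO2 (median 1.38) and from 2.22 to 5.24 CPM at 10% (median 3.15), without overlap (log2 fold change 1.35, adjusted p = 0.000622). HSPH1 was at 85.1 to 189 CPM (median 152) and 204 to 301 CPM (median 239), also without overlap (0.82, adjusted p = 0.0164). DYNLL1 was at 136 to 193 CPM (median 172) and 219 to 260 CPM (median 239.7) (0.52, adjusted p = 0.00187). RFX8 was at 6.44 to 14.8 CPM (median 9.36) and 2.81 to 6.61 CPM (median 4.77), where the groups just overlapped (-1.06, adjusted p = 0.00857). MT-ND4, at 1141 to 2371 CPM (median 2077) and 1876 to 4158 CPM (median 3962), overlapped and did not pass (0.84, adjusted p = 0.0563), and neither did MIR155HG (0.36, adjusted p = 0.184) or VIM (-0.31, adjusted p = 0.205).

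By function, the knockdown libraries had 15 of 73 ribosome biogenesis genes called higher (median 0.16), 9 of 77 mitochondrial ribosomal proteins (0.10), 7 of 26 heat shock proteins (0.13) and 6 of 10 chaperonins (0.22), with none of these lists' members lower. Over all genes 3.32% were called higher there and 3.37% lower. None of the 76 nuclear-encoded respiratory subunits or 76 cytosolic ribosomal proteins was called. Of the 37 immediate early genes 10 were lower and 1 higher (-0.27), and of the 31 cholesterol genes 7 were lower and 1 higher. Among 23 NF-kB genes 5 were lower and none higher, and among 41 cytokines and chemokines 4 were lower and none higher. Tests of the difference between the shNT response and that of the knockdown lines called no gene by edgeR (325 at an unadjusted p under 0.05) and none by DESeq2 (357 unadjusted), so no gene was shown to respond differently, and a difference below the reach of 18 libraries remains possible. Among the knockdown libraries, the calls numbered 440 when replicate 2 of shNR4A3 at 10% CO2 was dropped, 670 when replicate 2 of shNR4A3 at 5% was, and 769 when replicate 1 of shNR4A3 at 10% was. The share of the shNT calls also called there was 54.6% of a larger set without shNT 10% CO2 replicate 1.

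**Figure D5:**
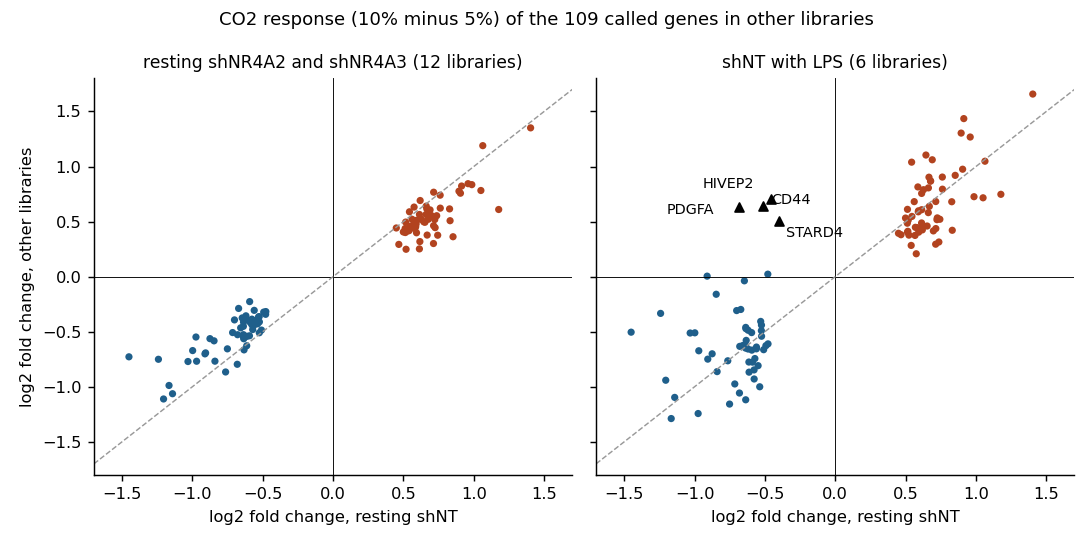
Log2 fold change at 10% against 5% CO2 of the 109 called genes in resting shNT cells (horizontal axis) against the same quantity in the 12 resting knockdown libraries (left) and in shNT cells with LPS (right), with the line of equal change dashed. All 109 genes keep their sign on the left, as 73% of all genes tested do, and 107 on the right, where that share was not counted. Triangles mark the 4 genes whose response differed between LPS-treated and resting cells.

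With LPS the shNT cells showed the same sign of CO2 response for all 58 higher genes (median 0.59) and for 49 of the 51 lower genes (median -0.65). Over all genes tested the median with LPS was -0.00845, and the share of all genes that kept their sign was not counted. The difference between the LPS-treated and the resting response, tested over 12 libraries, was called for 4 genes (0.0226% of those tested, 1024 at an unadjusted p under 0.05, 53 by DESeq2). None of the 4 was among the 109, and STARD4 was named after its values were seen. HIVEP2 (ENSG00000010818, chr6:142751467-142945201, minus strand), a zinc finger transcription factor, was at 42.8, 44.3 and 46.2 CPM at 5% and 35.5, 29 and 32.7 CPM at 10% CO2 at rest, with a log2 fold change of -0.45. With LPS it was at 114, 98.0 and 130.4 CPM at 5% and at 179, 177 and 187 CPM at 10% (log2 fold change 0.71), a difference of 1.17 (standard error 0.14, adjusted p = 0.00218). The groups did not overlap in either state, with opposite order. CD44, a hyaluronan receptor, went from 139, 119 and 109 CPM to 99.5, 80.8 and 76.7 CPM at rest (-0.52) and from 239, 194 and 235 CPM to 355, 369.6 and 286 CPM with LPS (0.64), a difference of 1.16 (standard error 0.18, adjusted p = 0.0435). PDGFA, a growth factor, went from 6.47, 5.25 and 5.59 CPM to 3.51, 3.31 and 3.94 CPM at rest (-0.69) and from 28.7, 29.3 and 39.4 CPM to 43.0, 55.4 and 48.8 CPM with LPS (0.64), a difference of 1.33 (standard error 0.22, adjusted p = 0.0435). STARD4, a cholesterol carrier, went from 20.9, 19.1 and 21.1 CPM to 15.4, 15.1 and 15.8 CPM at rest (-0.40) and from 59.3, 61.5 and 68.4 CPM to 75.6, 100.8 and 84.6 CPM with LPS (0.51), a difference of 0.91 (standard error 0.15, adjusted p = 0.0435). The 4 fell short of the threshold at rest alone (adjusted p = 0.08, 0.0674, 0.0988 and 0.138). In a single fit to all 36 libraries edgeR called 0 genes (890 with unadjusted p below 0.05). A single call was left without any 1 of 8 libraries (all 3 at 5% CO2, 5% CO2 + LPS replicates 1 and 2, 10% CO2 replicates 2 and 3, and 10% CO2 + LPS replicate 2), 2 without 10% CO2 + LPS replicate 3, 27 without 10% CO2 replicate 1 and 37 without 5% CO2 + LPS replicate 3.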

How the data were processed

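RNA was measured in 36 libraries of THP-1 lines, of which the 6 resting shNT libraries were described and 18 others compared. The authors deposited whole-number counts per gene. By the study's methods and the submitters' processing notes, polyA RNA was sequenced, Trimmomatic 0.36 trimmed the reads, STAR 2.5.2b placed them on GRCh38, and featureCounts (Subread 1.5.2) counted those with a single placement. The counts carried no normalization, and the annotation release and strand setting are not given in the sources used here. Symbols were matched by gene ID for 98.1% of 57500 genes. Gene positions are those in the files. Precision is limited by 3 libraries per group of 17132910 to 21068626 counts each, and p-values cover the spread between libraries.

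Genes were kept by edgeR's filterByExpr (minimum count 10, minimum total 15) over all 36 libraries, which left 17720. Each comparison was scaled by TMM and tested by robust quasi-likelihood (R 4.3.3, edgeR 4.0.16). P-values were adjusted over all genes tested by the method of Benjamini and Hochberg, with a call at an adjusted p under 0.05. Standard errors were obtained from the F statistic and the estimate. DESeq2, the tool of the study, served as an alternative (version 1.42.0). CPM in resting shNT libraries was scaled by TMM, except for the NR4A2 and NR4A3 ranges and the marker sums, which like the CPM of all other libraries were scaled by the total count. The knockdown comparison had a term for the line, and differences of responses were tested as interactions. The members, gene lists and tests were chosen with earlier results of these data known. Genes named were the 12 called with the largest change in each direction without overlap, the 6 with the smallest p, up to 6 called members of each list (or, with none called, up to 3 of the smallest p), genes the study names, and the 3 of smallest p in each difference of responses; genes without a symbol were counted only. Not every gene the rule reached is printed, and some results are not reported here. The fits were tested on simulated data with known changes. Same-numbered resting shNT libraries correlated at 0.21, 0.081 and -0.12 in their deviations from the group means, so the numbers were not taken to pair the samples. In genes at a mean of 10 CPM or more the values were 0.45, 0.19 and -0.41. The first principal component of these libraries did follow the number, and whether a number marks a shared experiment was not tested. Alternatives were RLE factors, library size only, TMM without mitochondrial genes, DESeq2, 3 other filters, a replicate block, 1 fit to all libraries, each library left out and an adjusted p of 0.01.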

Additional observations from a re-analysis of the deposited data

Results flagged for a closer look

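The 4 genes whose CO2 response differed between LPS-treated and resting shNT cells are listed here because the test of the difference itself passed (edgeR interaction, adjusted p under 0.05). The log2 fold change with LPS minus that at rest was 1.17 for HIVEP2, 1.33 for PDGFA, 1.16 for CD44 and 0.91 for STARD4. In the same order, the log2 fold change at 10% CO2 was -0.45, -0.69, -0.52 and -0.40 at rest and 0.71, 0.64, 0.64 and 0.51 with LPS. Groups of 3 libraries were too small for a test of single outlying samples.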

How the results depend on the processing

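All 109 calls of resting shNT cells kept their direction under every alternative tried. Their libraries did not overlap, so a reversal was hardly possible. The number of calls did change. It was 358 by DESeq2, 418 with no filter, 47 with a filter at 1 CPM, 71 with filterByExpr within the libraries compared, 303 in 1 fit to all libraries, 0 at an adjusted p of 0.01, where 2646 genes had an unadjusted p below 0.05, and 0 to 559 with each library left out. In the knockdown lines the number was 2942 with the replicate block, 283 at an adjusted p of 0.01 and 440 to 1644 with each library left out. For the difference between LPS-treated and resting cells it was 53 by DESeq2, 108 with no filter, 13 with the replicate block, 2 with library size only, 1 with a filter at 1 CPM and at an adjusted p of 0.01, 0 in 1 fit to all libraries, and 1 to 37 with each library left out. For the difference between shNT and knockdown lines it was 0 under each alternative, 0 to 0 with each library left out. The share of shNT calls also called in the knockdown lines was 54.6% to 89.9% with each library left out, apart from shNT 5% CO2 replicate 1 and shNT 10% CO2 replicate 2, without which no gene was called and no share exists. It was within 1.5 times of 86.2% under the other alternatives, with no value at an adjusted p of 0.01. The difference in the mitochondrial share was 0.881 to 1.39 percentage points with each library left out (1.07 with all), and 1.08 under both other definitions. The cause of these changes was not tested.

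With the replicate number as a block, resting shNT cells gave 144 calls, 100 of them among the 109, and 11 of the 13 mitochondrial genes (3 without the block), but same-numbered libraries did not all correlate by more than 0.1 in any comparison with shNT cells, so the samples may share only a number. In the resting knockdown lines every shNR4A2 pair passed 0.1 and 1 shNR4A3 pair did not (0.0447). In genes at a mean of 10 CPM or more these resting pairs correlated at 0.0839 to 0.609. No gene named in the text changed sign where it was called. At 3 libraries a group and a coefficient of biological variation of 11.4%, small changes are not detectable.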
